A study of Mus musculus with 2 samples.

Results

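Chromatin accessibility was examined at 7 mouse genes that set the fate of midbrain GABAergic neurons or encode cofactors of the proteins that do: Gata2, Gata3, Tal1, Tal2, Helt, Zfpm1 and Zfpm2. They were chosen by name, not by their signal, from 21911 named protein-coding genes. The assay was DNase-seq: DNase I cuts DNA where it is free of nucleosomes, and clusters of sequenced cuts are called as short peaks. The samples were midbrains of B6NCrl mouse embryos at embryonic day 14.5, healthy, with males and females pooled. They formed 1 group of 2 biological replicates, which are separate biosamples with the same donor entry. Part of their spread may therefore be technical. There was no control group, other age or other tissue to compare with, and with 2 replicates of 1 group every value below is a description with no test.

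In the embryonic midbrain, cells leaving the cell cycle choose between GABAergic and glutamatergic identity. The zinc finger protein GATA2 is the selector of the GABAergic choice in most of the midbrain, GATA3 follows it in the same precursors, and the basic helix-loop-helix proteins TAL1, TAL2 and HELT act beside them. GATA and TAL proteins can bind DNA together with E proteins, LMO proteins and LDB1, at a GATA word next to an E-box, and the FOG proteins encoded by Zfpm1 and Zfpm2 bind GATA proteins rather than DNA. Gata2, Gata3, Tal1 and Zfpm1 are also regulators of blood cells, and Gata2 and Tal1 of endothelium.

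Replicate 1 had 710176 peaks and replicate 2 had 267958. Each peak carries a value from the authors, whose median was 6 in the first list and 51 in the second. The highest value was 150 in both. The values are not scaled between replicates and the read depth is unknown, so a value is read only against other values of its own replicate. A peak was called shared when a replicate 2 peak overlapped a replicate 1 peak by at least 1 bp, which was the case for 64.0% of the replicate 2 peaks, and shared peaks are placed by their replicate 2 interval on mm10. In bulk tissue, fewer cells with an open site and less access per cell cannot be told apart. The promoters of all 6 midbrain markers (En1, En2, Otx2, Pax5, Pax7 and Pou4f1) carried shared peaks, as did 68.9% of all genes. The markers held 56 (Pax5) to 184 (En2) CpG dinucleotides in the 2 kb around the 5′ end. Of genes with at least the 54 CpGs of Tal2, 97.1% had a shared promoter peak, so the count of 6 is near that background. The values of the 6 markers were 45 to 111 in replicate 1 and 103 to 141 in replicate 2.

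All 7 genes had a shared promoter peak, meaning one that overlapped the 1 kb on either side of an annotated start. The same held for 68.9% of all genes. Counted in a single replicate, the 7 genes again all had a promoter peak, against 75.8% of genes in replicate 1 and 72.4% in replicate 2. The 2 kb around the gene's 5′ end held from 54 (Tal2) to 195 (Zfpm1) CpG dinucleotides, with a median of 103 against 61 for all genes. Tal2 lay below the median of all genes and Gata3, with 63, near it. Among the 11988 genes with at least as many CpGs as Tal2, 97.1% had a shared promoter peak, so the count of 7 of 7 is near that background.

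The strength of the promoter peaks separated the cofactor genes from the DNA-binding factors. In replicate 1 the strongest promoter peak had a value of 116 at Zfpm1, 93 at Zfpm2, 61 at Tal1, 51 at Tal2, 49 at Gata3, 40 at Gata2 and 26 at Helt. Replicate 2 gave the same order, with 142, 138, 132, 121, 118, 109 and 73. As percentiles among the promoters of all genes, Zfpm1 stood at 87.1 in replicate 1 and 77.3 in replicate 2, Zfpm2 at 66.9 in each, and Helt lowest at 38.2 and 35.7. Tal2 (46.9 and 49.4) and Gata3 (46.1 and 47.9) overlapped, so their order is within the spread between replicates. The other neighbours in the order did not overlap, although each rests on 2 values. The median over the 7 genes was 51 in replicate 1 and 121 in replicate 2, against 60 and 122 over all genes.

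**Figure D1:**
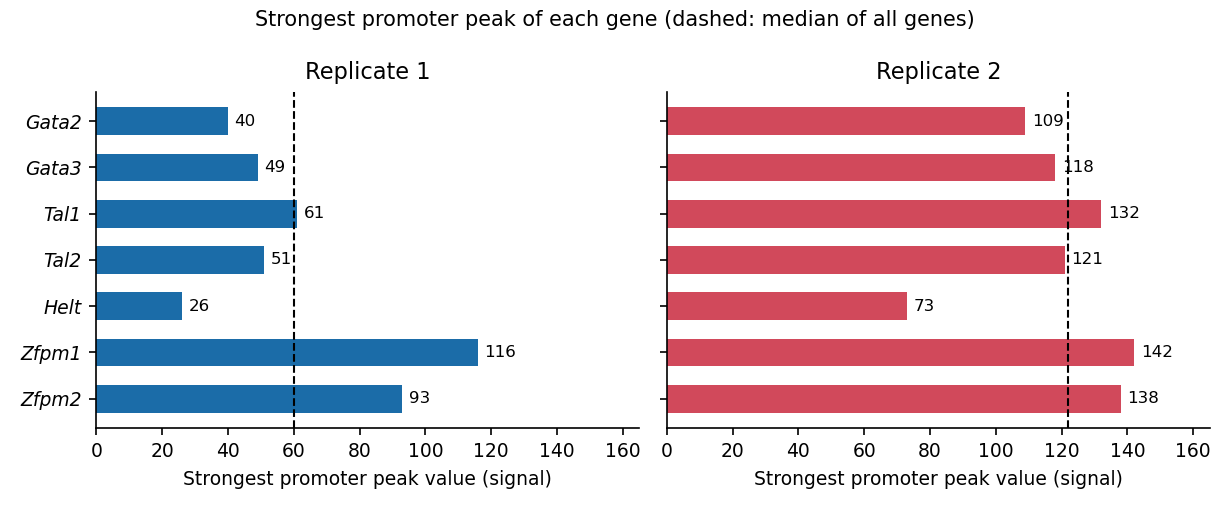
The authors' signal value of the strongest promoter peak (horizontal axis) of each of the 7 genes, in replicate 1 on the left and replicate 2 on the right, with the median of all genes dashed (60 and 122). Zfpm1 and Zfpm2 have the longest bars and Helt the shortest in both replicates.

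Beyond the promoters, shared peaks were dense around the genes. A shared peak was counted as distal when its centre lay in the gene body or within 50 kb of it, and more than 1000 bp from every protein-coding transcript start. Zfpm2 had 47, Gata3 35, Zfpm1 25, Tal1 13, Gata2 12, Helt 12 and Tal2 8. The median was 13, against 7 for all genes. Because long genes hold more peaks, each count was also set beside genes in the same of 10 classes of length, whose medians were 20, 7, 8, 6, 6, 4 and 6 in the same order. Gata3 exceeded 99.7% of the genes of its length class and Zfpm1 97.5%, whereas Tal2 exceeded 62.9%. Per 100 kb of window there were 26.3 peaks at Gata3, 16.1 at Zfpm1, 11.7 at Helt, 11.3 at Tal1, 10.6 at Gata2, 8.55 at Zfpm2 and 7.34 at Tal2. All 7 densities lay above the median of all genes, 5.02. The counts of all 7 genes rose by more than 1.5 times with replicate 1 peaks alone, where the order of the genes also changed.

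**Figure D2:**
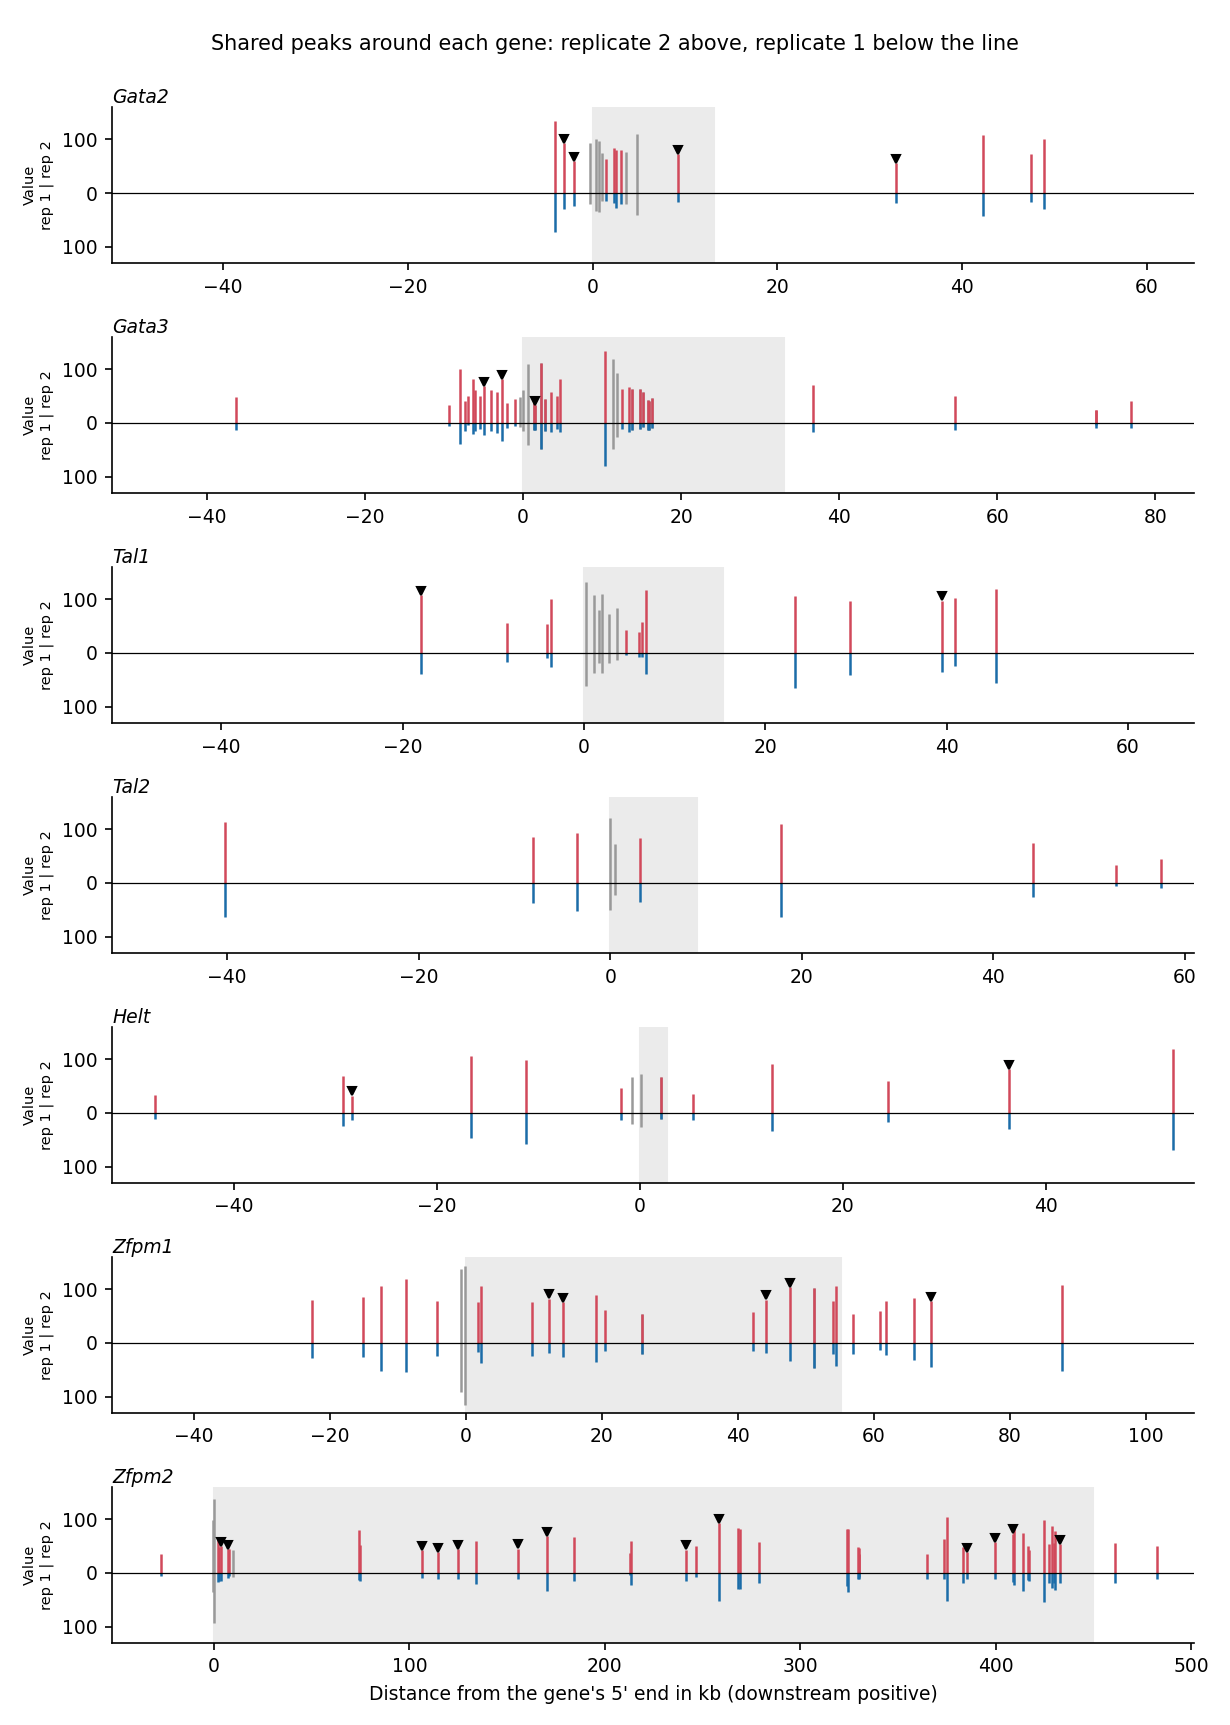
Shared peaks around each gene by distance from its 5′ end in kb (horizontal), with the authors' value in replicate 2 drawn upwards and in replicate 1 downwards. Grey lines are promoter peaks, coloured lines distal peaks, shading the gene body, and triangles distal peaks that hold a GATA word. Gata3 has a dense group of peaks from upstream of its 5′ end into its body, while most Zfpm2 peaks are spread through its introns.

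Across the 7 windows 152 distal peaks were counted, of which 85 (55.9%) lay in the body of the gene and 97 (63.8%) in introns of any gene. The gene itself owned the nearest protein-coding start for 109 of them (71.7%), and the remaining peaks could equally be assigned to a neighbour. The median values of the 152 peaks, 18 in replicate 1 and 63 in replicate 2, were close to those of all 140426 shared distal peaks, 18 and 60. Of the 152, 13 also fall in promoter windows of non-coding transcripts of the genes themselves, 10 of them at Gata3, 2 at Zfpm1 and 1 at Helt.

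Each distal peak was searched on both strands, in its central 150 bp, for the GATA words AGATAA and TGATAA, the E-box CAGATG preferred by TAL and E proteins, the E-boxes CAGCTG and CACGTG, and the homeodomain word TAATTA. A composite of the CTG end of an E-box and a GATA word was searched as CTGNNNNNNNGATA and CTGNNNNNNNNGATA. A form with 1 more base, CTGNNNNNNNNNGATA, was added after the Gata2 sequences had been read. A composite whose GATA part is AGATAA or TGATAA is counted under both, and an E-box ending in CTG can overlap the composite as well. The sequences printed below, for 5 of the 7 genes, are the forward strand of GRCm38.p6 (mm10), 5′ to 3′, with the letters of GATA words, of CAGATG or its reverse complement and of the 9-base composite in capitals. Matches to the other words are left in lower case. They show where the words lie in the peaks of each gene. A match is a description of the letters and does not show that a protein was bound.

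Gata2 encodes the selector of midbrain GABAergic fate. It lies on chromosome 6 at 88193891 to 88207032, forward strand, and has 4 annotated starts. At the upstream protein-coding start the strongest peak had values of 35 in replicate 1 and 100 in replicate 2, and at the protein-coding start 4443 bp downstream 40 and 109. The difference between the starts went the same way in both replicates. The 2 non-coding starts had no shared peak. The strongest distal peak of Gata2, 4120 bp upstream in the non-coding gene Gm38708, had values of 72 and 133, above the promoter in both replicates. The next in rank lay 42280 bp downstream (42 and 108) and 48900 bp downstream (29 and 101), both in introns of the neighbour Dnajb8.

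Of the 12 distal peaks at Gata2, 4 held a GATA word, and 3 of these held the composite with 9 bases. These 3 are printed because they lie close to the gene and carry the same arrangement: 2060 bp upstream with values of 25 and 59, 3120 bp upstream with 30 and 92, and 9280 bp downstream in an intron with 17 and 72. The intronic peak holds a whole E-box, CATCTG, followed by AGATAA, and the nearest upstream peak holds a second GATA word after the composite. As background, enhancers upstream of Gata2 and in its introns, with GATA words and an E-box, are known from blood and endothelial cells. Whether these peaks are those elements was not examined here.
Gata2 chr6:88191756-88191905: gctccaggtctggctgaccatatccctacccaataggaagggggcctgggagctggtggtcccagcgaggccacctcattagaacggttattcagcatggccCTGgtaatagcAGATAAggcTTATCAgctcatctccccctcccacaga
Gata2 chr6:88190696-88190845: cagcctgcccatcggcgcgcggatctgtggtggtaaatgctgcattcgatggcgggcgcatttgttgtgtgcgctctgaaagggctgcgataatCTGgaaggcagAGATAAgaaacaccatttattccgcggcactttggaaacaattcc
Gata2 chr6:88203096-88203245: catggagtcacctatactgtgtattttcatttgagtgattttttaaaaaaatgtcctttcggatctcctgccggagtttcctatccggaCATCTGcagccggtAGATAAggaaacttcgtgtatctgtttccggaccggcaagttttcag

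Gata3, which follows Gata2 in the same precursors, lies on chromosome 2 at 9857078 to 9890034, reverse strand. Its 5′ end had promoter values of 40 and 110, and the protein-coding start 11434 bp downstream had 49 and 118. A start of a non-coding transcript 2250 bp downstream had 48 and 111. The strongest distal peak lay 10323 bp downstream of the 5′ end in an intron, with 80 and 134. It lay 1111 bp from the internal protein-coding start, just past the 1000 bp limit for distal peaks. Its values were above every promoter peak of the gene in both replicates. The others in rank lay 2243 bp downstream (48 and 111) and 7977 bp upstream (39 and 100). The former is the same peak as that given above for the non-coding start.

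Gata3 stood apart among the 7 genes in the breadth of open chromatin. Hotspots are the wider regions in which the authors found cuts enriched. The widest hotspot within 1 kb of Gata3 spanned 5820 bp in replicate 1 (9881163 to 9886982) and 6300 bp in replicate 2 (9877884 to 9884183), and these overlapped. The median hotspot was 201 bp wide in replicate 1 and 250 bp in replicate 2, and only 0.00473% and 0.0274% of hotspots were as wide. At the other 6 genes the widest hotspot spanned 784 to 2635 bp in replicate 1 and 712 to 3699 bp in replicate 2, the upper ends being those of Tal1. The count of 35 distal peaks at Gata3 depended on how peaks were counted, with 21 when peaks had to overlap by at least 75 bp, 20 with only peaks at or above the median value of their replicate and 23 when peaks near any annotated start were left out. With replicate 1 peaks alone it was 80, below Zfpm1 (130) and Zfpm2 (349), and with replicate 2 peaks alone 48. Of the 35, 3 held a GATA word (8.57%), against 12.5% of all shared distal peaks. The highest of these by rank, 2637 bp upstream with values of 34 and 81, is shown for comparison with Gata2: its word is the reverse complement TTATCT, with no composite.
Gata3 chr2:9892596-9892745: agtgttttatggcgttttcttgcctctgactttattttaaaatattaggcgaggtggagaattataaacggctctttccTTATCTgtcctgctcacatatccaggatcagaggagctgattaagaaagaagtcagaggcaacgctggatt

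Tal1, a basic helix-loop-helix partner of the GATA proteins, lies on chromosome 4 at 115056426 to 115071755, forward strand, with 4 protein-coding starts. Its strongest promoter peak had values of 61 and 132 and served the 5′ end and the next start, while the further 2 starts shared a weaker peak of 38 and 109. The promoter peak holds a GATA word and is among the 4 that do of the 39 shared promoter peaks of the 7 genes. Of these 39, 13 are also counted as distal, and the share over the promoter peaks of all genes was not computed. The distal peaks highest in rank lay 45445 bp downstream (55 and 118), 6905 bp downstream in coding sequence (40 and 117) and 23305 bp downstream (66 and 106). The peaks beyond the gene have Pdzk1ip1 as the gene with the nearest start.

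Of the 13 distal peaks of Tal1, 2 held a GATA word. One lay 17995 bp upstream in coding sequence of Stil (39 and 107), and the other, 39545 bp downstream (36 and 97), held the 9-base composite with TGATAA. As background, an enhancer downstream of Tal1 that is active in midbrain and blood cells and is regulated by TAL1 and GATA proteins is known from reporter mice. Whether this peak is that element was not examined here. The promoter peak and the downstream peak are printed as the matches nearest to and farthest from the start.
Tal1 chr4:115056636-115056785: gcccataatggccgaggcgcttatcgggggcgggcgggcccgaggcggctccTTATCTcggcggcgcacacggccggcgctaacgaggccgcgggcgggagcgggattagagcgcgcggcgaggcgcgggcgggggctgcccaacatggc
Tal1 chr4:115095896-115096045: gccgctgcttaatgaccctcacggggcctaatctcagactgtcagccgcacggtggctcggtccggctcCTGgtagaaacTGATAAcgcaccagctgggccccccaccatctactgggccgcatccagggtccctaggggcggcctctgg

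Tal2, the close relative of Tal1 expressed in midbrain GABAergic precursors, lies on chromosome 4 at 53779705 to 53788712, forward strand, with 1 annotated start. Its strongest promoter peak had values of 51 and 121. It had the fewest shared distal peaks of the 7 genes, 8. With replicate 2 peaks alone the count was again 8, against a median of 11 for all genes, but with replicate 1 peaks alone it was 60, against 22, and above Gata2 (23), Tal1 (35) and Helt (54). All 13 replicate 2 peaks of its window were shared, whereas 54 of the 68 replicate 1 peaks were not. Among the highest in rank was a peak 17806 bp downstream of the 5′ end, with values of 63 and 110. None of the 8 held a GATA word or the TAL E-box in the searched window. Of all shared distal peaks 12.5% and 15.4% did, so with 8 peaks few matches could be awaited.

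Helt, which encodes a relative of the Hairy and Hey repressors that is needed for GABAergic fate in the midbrain, lies on chromosome 8 at 46292039 to 46294671, reverse strand. It had the weakest promoter of the 7 genes, with 26 and 73, and that peak served both protein-coding starts. Several distal peaks were stronger in both replicates: 52560 bp downstream (68 and 119), 16680 bp upstream (47 and 105) and 11260 bp upstream (57 and 99), the last 2 in the non-coding gene Gm39168. No other protein-coding gene had a start in the window, and Helt owned the nearest start for 11 of its 12 distal peaks. Gata2, Gata3 and Helt were thus the genes with a distal peak stronger than any promoter peak in both replicates. The Gata3 peak lay only 1111 bp from a protein-coding start of that gene. At Tal1 and Tal2 a distal peak was the stronger in replicate 1 and not in replicate 2, and at Zfpm1 and Zfpm2 in neither. Of the 12 peaks 2 held a GATA word, and 1 further peak, in coding sequence 2100 bp downstream (12 and 66), held the 9-base composite. It is printed because its GATA part is not one of the GATA words.
Helt chr8:46292496-46292645: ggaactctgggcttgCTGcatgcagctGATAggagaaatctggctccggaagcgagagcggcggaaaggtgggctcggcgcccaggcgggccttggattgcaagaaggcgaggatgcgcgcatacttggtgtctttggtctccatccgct

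Zfpm1, which encodes the GATA cofactor FOG1, lies on chromosome 8 at 122282141 to 122337251, forward strand. Its promoter peak at the 5′ end had values of 116 and 142, the highest of the 7 genes, while peaks at its internal non-coding starts reached 47 and 102. The distal peaks highest in rank lay 8790 bp upstream (54 and 119), 87690 bp downstream (52 and 107) and 12550 bp upstream (53 and 105), each less than the promoter. The window is crowded, with starts of Trhr2 and Zc3h18 inside it and the long overlapping gene model Gm20388 across it, and Zfpm1 owned the nearest start for 13 of its 25 distal peaks. Of the 25, 5 held a GATA word. The one printed, 47650 bp downstream in an intron (33 and 104), is the highest of them in rank.
Zfpm1 chr8:122329716-122329865: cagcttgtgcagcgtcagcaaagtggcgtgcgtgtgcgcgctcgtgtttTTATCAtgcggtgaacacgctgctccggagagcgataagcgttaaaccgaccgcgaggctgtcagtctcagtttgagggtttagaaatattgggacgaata

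Zfpm2, which encodes the related cofactor FOG2, lies on chromosome 15 at 40655035 to 41104592, forward strand, and is by far the longest of the genes at 449558 bp. Its promoter had values of 93 and 138, and a protein-coding start 9955 bp downstream had 9 and 42. Of its 47 distal peaks 44 lay in introns. They were weak compared with its promoter, with medians of 16 and 54, and the highest in rank lay 374876 bp downstream (52 and 104), 424756 bp downstream (54 and 98) and 258396 bp downstream (52 and 92). Zfpm2 held the most GATA words, in 13 of the 47 peaks (27.7%), and 4 peaks with the 9-base composite. The peak at 258396 bp was the highest in rank of those with a GATA word.

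Counted over all 152 distal peaks, 29 held a GATA word, 19.1% (95% exact binomial interval 13.2 to 26.2), against 12.5% of all shared distal peaks. Zfpm2 contributed 13 of the 29. Without its window the share was 15.2% (16 of 105, interval 8.97 to 23.6), an interval that includes the share of all peaks. The interval also included the share of all peaks with replicate 1 alone (18.2% against 16.8%), with replicate 2 alone (17.1%, 12.2 to 22.9, against 12.7%), with peaks at or above their replicate's median value (17.6%, 10.9 to 26.1, against 11.1%) and with AGATAA alone (11.8%, 7.17 to 18.1, against 7.22%). The intervals cover counting error only, and peaks of 1 window share a locus and are not replicates. Peaks with a GATA word had median values of 18 and 68, and those without had 17 and 63.

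Single E-boxes and the homeodomain word were no more frequent than in the background. The TAL E-box CAGATG was found in 18 of the 152 peaks, 11.8% (7.17 to 18.1), against 15.4% of all shared distal peaks. The proneural E-box CAGCTG was found in 22, 14.5% (9.30 to 21.1), against 15.2%. CACGTG was found in 2 peaks, 1.32%, against 3.07%, and TAATTA in 5, 3.29%, against 5.75%. The composite was counted separately by its spacing. Its forms with 7 or 8 bases were found in 7 peaks, 4.61% (1.87 to 9.26), against 2.95%, which lies within the interval. The form with 9 bases was found in 10 peaks, 6.58% (3.20 to 11.8), against 1.79%. It was chosen on the Gata2 sequences, so the 3 Gata2 peaks are no support for it. The other 6 windows held it in 7 of 140 peaks, or 5%, namely 4 at Zfpm2 and 1 each at Tal1, Helt and Zfpm1. The forms with 7 or 8 bases had no match at Gata2, so their 7 peaks also lay among these 140. Outside Gata2 the 2 counts were thus equal, but they are not like for like. The first form pools the spacings of 7 and 8 bases (2.95% of all peaks), and the 9-base form is a single spacing (1.79%). Whether matches differ by spacing was not tested. Of the 10 peaks with the 9-base form 7 also held a GATA word as defined above.

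**Figure D3:**
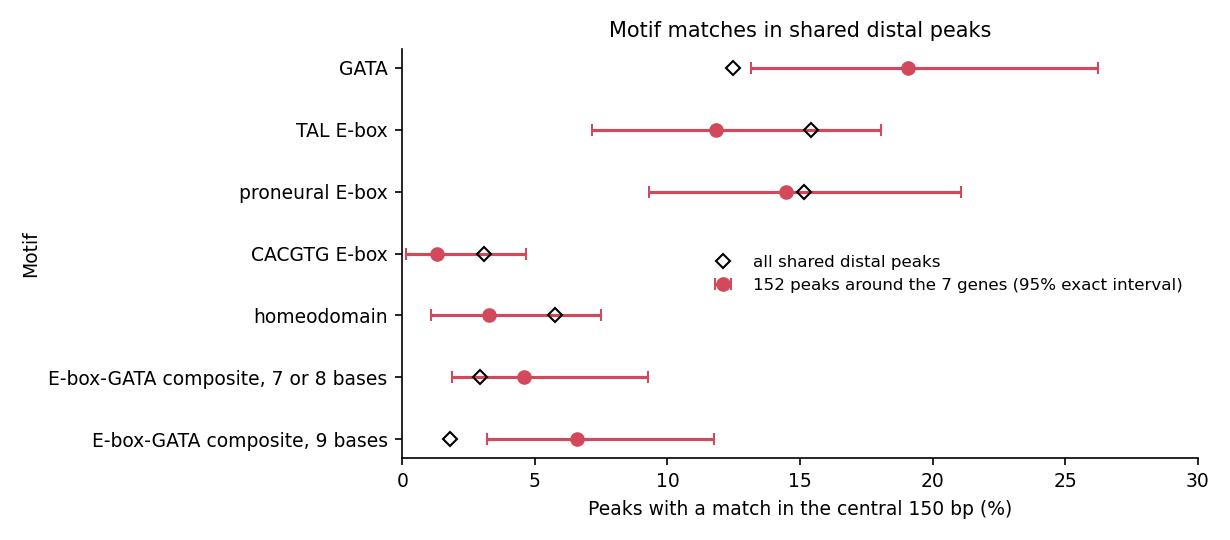
Share of shared distal peaks with a match in the central 150 bp (horizontal axis, percent) for each motif (vertical axis), with filled points and 95% exact binomial intervals for the 152 peaks around the 7 genes and open diamonds for all 140426 peaks. The point for GATA words lies to the right of its diamond (19.1% against 12.5%). The point for the 9-base composite includes the 3 Gata2 peaks on which that form was chosen.

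The replicates differed in which peaks they held. Of the 257 replicate 2 peaks in the 7 windows 189 were shared (73.5%), while replicate 1 had 783 peaks there. Zfpm2 had 302 replicate 1 peaks with no partner, with a median value of 5 and a highest of 22, and Zfpm1 had 104 with a highest of 24. The unpartnered peaks of replicate 2 had medians on either side of the 51 of its whole list. These were 56 at Tal1, 53.5 at Gata3, 52 at Zfpm2, 50 at Gata2, 48 at Zfpm1 and 45 at Helt, and Tal2 had no such peak. In replicate 2 the highest values without a partner were 114 at Gata3 (11143 bp downstream), 95 at Zfpm1 (2450 bp downstream), 92 at Gata2 (120 bp downstream) and 88 at Tal1 (1345 bp downstream). In replicate 1 the highest was 27, at Gata2 (3380 bp upstream).

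The share of each window covered by hotspots also differed between replicates. In replicate 1 it was 25.2% at Gata3, 23.2% at Zfpm1, 19.0% at Tal2, 14.9% at Zfpm2, 12.3% at Helt and 6.51% at Gata2, with Tal1 between the last 2, against a median of 5.77% for all genes. In replicate 2 it was 18.5% at Gata3, 11.2% at each of Tal1 and Zfpm1, 9.68% at Gata2, 6.92% at Helt, 5.93% at Tal2 and 3.17% at Zfpm2, against a median of 5.07%. Gata3 led in both replicates. The other genes changed places, and Zfpm2 fell from the 89.1th percentile of genes in replicate 1 to the 29.7th in replicate 2, so hotspot coverage does not order the genes beyond the spread between replicates.

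**Figure D4:**
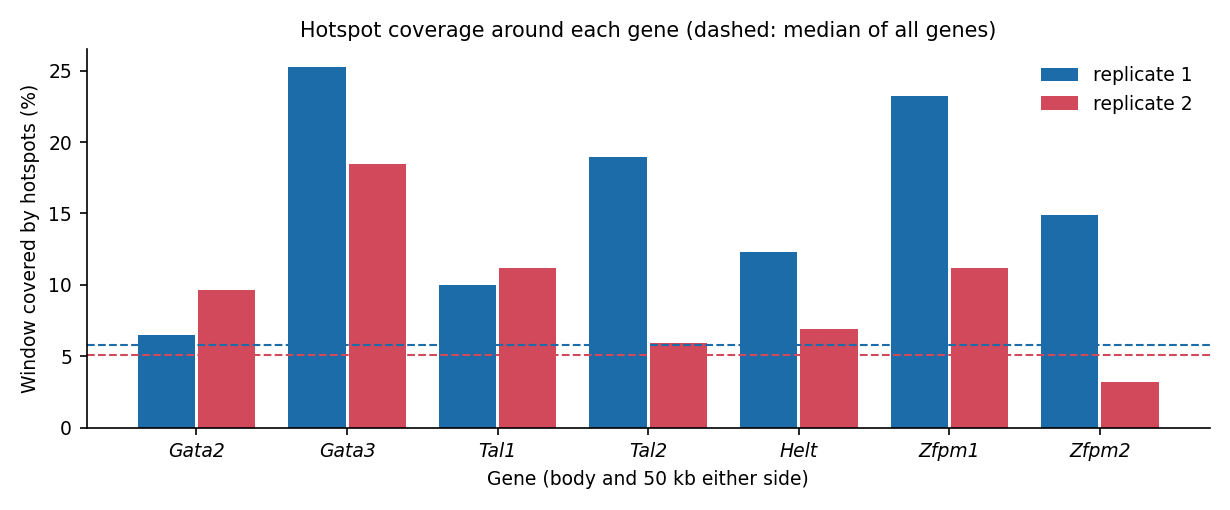
Share of each gene's window (body and 50 kb on either side) covered by hotspots, in percent, with 1 bar per replicate and the median of all genes dashed (5.77% and 5.07%). Gata3 has the highest bar in each replicate (25.2% and 18.5%), while Tal2 and Zfpm2 differ several-fold between replicates.

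Relatives and partners of the factors were set beside them. As background for the counts, 68.9% of all genes had a shared promoter peak. Of 9 relatives in the GATA, TAL and Hey families 8 had a shared promoter peak, the exception being Gata1, the blood GATA factor, with no promoter peak in either replicate. The strongest were Hey2 (112 and 148), Hey1 (112 and 146) and Trps1 (69 and 128). Gata4 (8 and 85), Gata5 (21 and 70) and Gata6 (36 and 106), which act mainly in heart and endoderm, had values below Gata2 in each replicate. As percentiles, Gata6 (41.6 and 43.2) and Gata2 (43.1 and 44.2) overlapped, so their order is within the spread between replicates. Lyl1, the blood relative of Tal1, had 27 and 82, less than Tal1 in each. All 11 genes for proteins of the TAL complex had a shared promoter peak, led by the corepressor Cbfa2t2 (126 and 146) and the E proteins Tcf4 (125 and 145) and Tcf3 (120 and 143). The lowest of the 11 in replicate 1 was Lmo2, at 60 and 122.

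Regulators of the lineage and genes of the GABAergic phenotype were read in the same way. All 14 regulators had a shared promoter peak, against 68.9% of all genes and 97.1% of those with at least as many CpGs as Tal2. Their median promoter values, 61 and 121.5, were near the 60 and 122 of all genes. The regulators were led by Insm1 (102 and 146), Lhx1 (100 and 139) and Lhx5 (97 and 132), with a median of 24 distal peaks. The GABA synthesis genes Gad1 (75 and 119) and Gad2 (41 and 105) and the vesicular transporter gene Slc32a1 (54 and 119) had shared promoter peaks. All 4 genes of the phenotype list did, with a median of 24 distal peaks. Per 100 kb the median was 19.7 peaks for the regulators, 17.0 for the phenotype genes, 11.3 for the 7 fate genes, 9.48 for the complex partners and 7.49 for the family relatives.

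**Figure D5:**
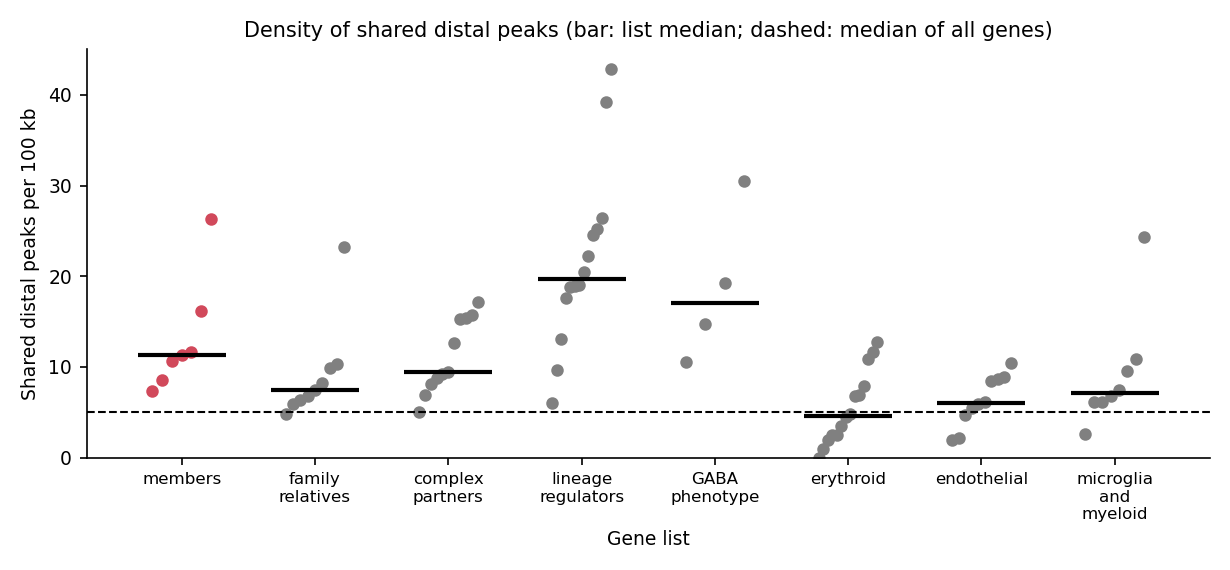
Shared distal peaks per 100 kb of window (vertical axis) for each gene of 8 lists (horizontal axis), with list medians as bars and the median of all genes, 5.02, dashed. The 7 fate genes, in red, range from 7.34 to 26.3 and their median, 11.3, lies between that of the lineage regulators and those of the blood and vessel lists.

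Because these genes also act in blood and vessels, markers of those cells were read in the same way. Of 14 erythroid genes 4 had a shared promoter peak, against 68.9% of all genes. Among these 4 were Epor (27 and 101), Gfi1b (23 and 78) and Nfe2 (22 and 56). The defining genes Gata1, Alas2, Slc4a1, Hba-a1, Hba-a2, Hbb-bs and Hbb-bt had no promoter peak in either replicate. Klf1 (10 and 53) and Epb42 (9 and 21) had a promoter peak in each replicate that did not overlap. The erythroid values ranged from 0 to 46 in replicate 1 and from 0 to 101 in replicate 2. Over the 14 genes they summed to 137 and 432, against 436 and 833 over the 7 fate genes. The lists differ in size and in CpGs, so these sums do not measure the part of a cell type.

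Of 10 endothelial genes, which held 27 (Emcn) to 107 (Cldn5) CpGs, 6 had a shared promoter peak. With so few genes this 60% is near the 68.9% of all genes. The 6 were led by Esam (50 and 107), Kdr (38 and 114) and Erg (37 and 103), beside 40 and 109 at Gata2. Cdh5 (0 and 42), Tek (6 and 0), Emcn (6 and 0) and Tie1 (0 and 0) had no shared peak, and the list summed to 198 and 574. Of 8 microglial and myeloid genes 2 had one, Mpo (27 and 66) and C1qa (18 and 49), and Spi1, Csf1r, Ptprc, Aif1, Cx3cr1 and Itgam were at 0 in both. The part of blood and endothelial cells in the peaks of Gata2, Gata3, Tal1 and Zfpm1 was not tested.

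For each gene, the 3 others most like it were found by the distance over 3 measures, the promoter percentile in each replicate and the percentile of the distal count. They were Prex2, Nlgn3 and Cldn10 for Gata2, Itga9, Cntn4 and Dlx1 for Gata3, Irf2, Zbtb46 and Pdgfb for Tal1, and Etfbkmt, Usp24 and Cd63 for Tal2. For Helt they were Fscn2, Prdm14 and Pik3r6, for Zfpm1 Cdk5r2, Katnal1 and Armh3, and for Zfpm2 Gm20388, Eipr1 and Epb41l4a. Gm20388 is near by percentile only, with 555 distal peaks beside 47 for Zfpm2. It is the gene model that lies across the Zfpm1 window. Itga9 was the nearest of all, with promoter values of 50 and 118 and 35 distal peaks beside 49, 118 and 35 for Gata3. The likeness covers 2 replicates of 1 tissue. None of the 7 genes was among the nearest of another.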

How the data were processed

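DNase-seq peaks and hotspots of 2 replicates of midbrain at embryonic day 14.5 were used as deposited, on mm10 per the labels. For the aligner and the peak caller, names and versions were not given in the sources used here. The deposited peak lists, 1 per replicate, hold the authors' signal value for each peak, with no p or q value, and the deposited hotspot lists hold a −log10 q value for each region (1.301 to 100). No file gives counts, so depth and its precision are unknown.

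Sequence was GRCm38.p6 and annotation GENCODE release M21, restricted to named protein-coding genes on the numbered chromosomes, X and Y. All 8 promoter sequences of the 7 genes in a RefSeq table were identical to this sequence. Peaks were shared at an overlap of at least 1 bp. Promoters reached 1 kb on either side of any annotated start, and windows 50 kb beyond the gene. Ranks are percentiles within a replicate, and rank of a peak is its mean percentile over both. Motifs were exact matches in the central 150 bp, and intervals are 95% Clopper-Pearson.

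The text names all 7 genes. For every gene it names the 3 shared distal peaks highest in rank and the 3 most similar genes. From each of the 8 other lists it names the 3 genes highest in promoter rank and those with no shared promoter peak. Peaks with GATA words or composites, and the lower members of a list, were named after their values were seen. Some genes, peaks and sequences that this rule names are not reported here. The genes and lists were chosen with earlier results of these data known. The family relatives, complex partners, lineage regulators, GABA phenotype genes and the midbrain, erythroid, endothelial and microglial and myeloid markers were each compared by counts. Otx2 and Pax7 are in both the midbrain and the lineage list, and Gata1 in both the family and the erythroid list. One erythroid gene, Ahsp, is not under that symbol in the annotation.

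Alternatives varied the replicate, the overlap, the peak threshold, the windows, the starts and the motif. Steps were tested on simulated data. Work was done in Python 3.11.15 with pandas 2.3.3, numpy 2.4.6 and scipy 1.17.1, and figures with matplotlib 3.10.9.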

Additional observations from a re-analysis of the deposited data

How the results depend on the processing

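All 7 genes kept a shared promoter peak under all 8 alternatives tried. The median of 13 distal peaks became 19 with replicate 2 alone and 60 with replicate 1 alone, where the medians of all genes were 11 and 22, and 23 with 100 kb on either side (13 for all genes). It was 10 to 13 under the other alternatives. Of 63 alternative counts for single genes 42 lay within 1.5 times the count given and 62 above the median of all genes, the exception being Tal2 with replicate 2 alone. The 21 others included all 7 genes with replicate 1 alone. The GATA share of 19.1% became 33.6% in 300 bp (26.0% of all peaks) and 11.8% with AGATAA alone (7.22%), and was 15.2% to 20.6% otherwise. Its interval included the share of all peaks under 5 of the 9 alternatives: either replicate alone, peaks at or above the median value, AGATAA alone and without the Zfpm2 window. No paired analysis was possible because there is 1 group and no test. Read depth is unknown, so whether a site without a peak is closed cannot be told, and the lower number of replicate 2 peaks limits what could be called shared.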
